A study of Homo sapiens with 8 samples.

Results

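The cells described here were HepaRG cells with high levels of AKR1C8, ITGB6, BTNL8, CFAP221 and LINC02268, called high-score cells below. Each cell was scored by the mean, over these 5 genes, of the natural logarithm of 1 plus the unique molecular identifiers (UMIs, each marking 1 captured cDNA molecule) of the gene per 10000 UMIs of the cell. The highest 7% of the scored cells were taken, which gave 502 of 7172 cells. The deposited table held 12976 cells in all, and scored cells had at least 500 genes, at most 20% mitochondrial UMIs, and had received neither rotenone nor 20 µM cycloheximide. The other 6670 scored cells served as the comparison and are called other cells.

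HepaRG is an established human liver line whose progenitors give hepatocyte-like and biliary-like cells in the same dish. The vendor's terminally differentiated cells were grown on collagen for 7 days, treated for 24 h with a chemical or with 0.1% DMSO, the solvent, dissociated and fixed. Their RNA was then barcoded in plate wells over several rounds of splitting and pooling (Parse Evercode). The 8 deposited samples are sublibraries of this pool, so conditions were read from the culture name that the cell table gives each cell. Besides DMSO, the scored cells came from etoposide (0.25, 2.5 and 25 µM), a topoisomerase inhibitor that damages DNA, and tunicamycin (0.001, 0.01 and 0.1 µM) and brefeldin A (0.001, 0.01 and 0.1 µM), which stress the endoplasmic reticulum. They also came from tert-butylhydroquinone (tBHQ; 3, 30 and 300 µM), an activator of the oxidative stress factor NRF2, cycloheximide (0.2 and 2 µM), which blocks translation, and the PPARγ agonist troglitazone. The cell table lists troglitazone at 50 µM where the labels give 0.001 to 0.1 µM, and it lists cultures in medium that the labels do not describe. These names were used as the table gives them. The study describes 1 biological replicate, so the spread between cultures of a condition may be technical, and p-values measure that spread only.

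Of the 5 genes, ITGB6 encodes the integrin β6 subunit, which pairs with the αv subunit (ITGAV) in epithelial cells and releases transforming growth factor β (TGF-β) from its latent complex. It is scarce in resting liver and is known from injured bile ducts. AKR1C8 belongs to the aldo-keto reductase cluster whose neighbours reduce steroids and carbonyl compounds. BTNL8 is a butyrophilin-like surface protein best known from gut epithelium, where it acts with BTNL3 on γδ T cells, and CFAP221 is a protein of motile cilia. LINC02268 is a long non-coding RNA.

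AKR1C8 lies on chromosome 10 (5153920 to 5185187, minus strand, GRCh38, GENCODE annotation), and ITGB6 on chromosome 2 (160099667 to 160200313, minus strand). BTNL8 lies on chromosome 5 (180899077 to 180950906, plus strand) and LINC02268 on chromosome 4 (174061732 to 174220398, minus strand). CFAP221 lies on chromosome 2 (119544432 to 119662251, plus strand), far from ITGB6. The promoters of the 5 genes are shown because these genes were high in the same cells. Each runs from 250 bases before to 50 bases after the RefSeq start (GRCh38.p14), 5′ to 3′ on the gene's strand, with matches to the searched motifs in capitals:

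AKR1C8, chr10:5185101-5185400, minus strand: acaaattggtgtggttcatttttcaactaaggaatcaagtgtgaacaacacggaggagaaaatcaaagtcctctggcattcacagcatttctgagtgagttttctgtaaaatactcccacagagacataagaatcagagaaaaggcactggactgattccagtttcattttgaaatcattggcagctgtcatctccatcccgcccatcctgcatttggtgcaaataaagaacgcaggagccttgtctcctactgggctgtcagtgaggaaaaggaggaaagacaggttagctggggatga

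ITGB6, chr2:160200223-160200522, minus strand: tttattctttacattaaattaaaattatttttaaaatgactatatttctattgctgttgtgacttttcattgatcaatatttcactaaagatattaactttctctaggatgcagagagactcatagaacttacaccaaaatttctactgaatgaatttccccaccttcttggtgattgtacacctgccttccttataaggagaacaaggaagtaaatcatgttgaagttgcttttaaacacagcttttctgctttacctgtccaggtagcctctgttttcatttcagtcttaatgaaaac

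BTNL8, chr5:180898909-180899208, plus strand: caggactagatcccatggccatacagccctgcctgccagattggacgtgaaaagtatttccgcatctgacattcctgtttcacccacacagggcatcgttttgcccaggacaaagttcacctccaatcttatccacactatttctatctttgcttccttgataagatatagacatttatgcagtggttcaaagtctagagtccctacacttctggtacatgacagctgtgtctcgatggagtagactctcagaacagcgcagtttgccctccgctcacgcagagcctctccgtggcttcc

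CFAP221, chr2:119544199-119544498, plus strand: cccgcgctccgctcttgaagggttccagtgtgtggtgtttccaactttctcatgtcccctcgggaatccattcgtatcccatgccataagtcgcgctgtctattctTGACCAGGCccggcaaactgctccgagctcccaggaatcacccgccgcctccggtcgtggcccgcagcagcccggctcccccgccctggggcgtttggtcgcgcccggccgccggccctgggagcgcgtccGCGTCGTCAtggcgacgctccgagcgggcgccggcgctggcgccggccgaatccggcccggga

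LINC02268, chr4:174220349-174220648, minus strand: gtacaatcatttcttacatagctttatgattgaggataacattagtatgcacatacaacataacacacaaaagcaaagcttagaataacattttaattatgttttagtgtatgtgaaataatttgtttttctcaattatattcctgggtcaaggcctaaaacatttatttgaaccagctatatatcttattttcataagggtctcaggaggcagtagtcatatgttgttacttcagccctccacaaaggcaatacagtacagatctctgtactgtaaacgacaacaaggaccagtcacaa

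The 5 windows shared little in base composition. GC content was 44% in AKR1C8, 31.7% in ITGB6, 49% in BTNL8 and 33.3% in LINC02268, against 70% in CFAP221, which also held 39 CpG dinucleotides. The median over 34796 RefSeq promoters was 58.7%, and 1.75% of them had a lower GC content than ITGB6. Each of 5 motifs was searched on both strands: the TATA box TATAAA (in 11.6% of all promoters), the HNF4A motif CAAAGTCCA (0.385%), the nuclear receptor half-site AGGTCA (13.8%), the AP-1 motif TGANTCA (7.73%) and the antioxidant response element core TGACNNNGC (13.3%). The CFAP221 window held 2 antioxidant response element cores, TGACCAGGC at 144 bases and GCGTCGTCA at 13 bases before the start. The other 4 windows held none of these letters.

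The score ran up to 1.32, and 1686 cells (23.5%) scored 0. The limit fell inside a continuous range (the plot of score against number of cells). The last 3 cells inside had scores of 0.5782, 0.5779 and 0.5779, and the first 3 outside had 0.5776, 0.5776 and 0.5773. Of the high-score cells, 139 lay within 0.05 above the limit, and 173 other cells lay within 0.05 below it. The group is therefore a range of a score, and the cells were not clustered here. All 5 genes had at least 1 UMI in 218 high-score cells, 4 genes in 182, 3 in 75 and 2 in 27.

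**Figure D1:**
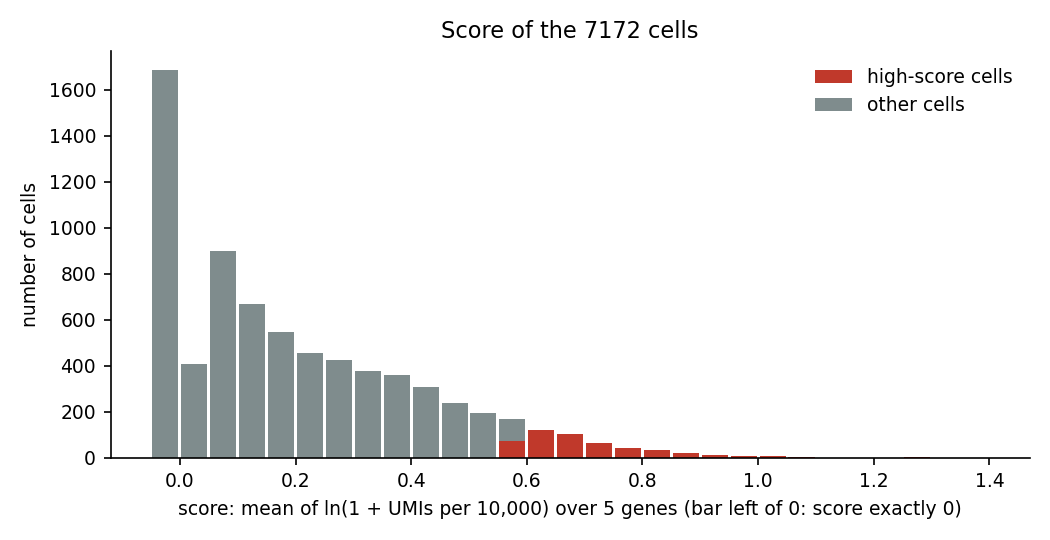
Number of scored cells (y axis) by score over the 5 genes (x axis, natural log units), with the limit for the top 7% marked. The high-score cells form the upper tail of a continuous distribution, whose limit lay near 0.578.

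High-score cells had a median of 43630 UMIs and 8242 genes, against 39918 UMIs and 8012 genes in other cells, and 14.8% against 15.1% mitochondrial UMIs. In 10 equal groups of cells ordered by UMIs their share ran from 5.01% to 8.79%, and in the 8 sublibraries from 5.59% to 8.26%. Of all 12976 deposited cells, 1735 shared a well barcode with a cell of another sublibrary, among them 60 of the 502 high-score cells. No doublet caller was applied.

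Each marker was also detected in many other cells. AKR1C8 had a UMI in 93.4% of high-score cells and 45.4% of other cells, and in 43.5% of 1560 cells with mesenchymal markers, where it is not expected (30 of these were high-score cells, and their median depth was 62002 UMIs). With each cell thinned to 5000 UMIs, the shares were 56.0%, 13.7% and 10.6%. ITGB6 had thinned shares of 46.2% in high-score cells, 11.3% in other cells and 7.24% in cells with mesenchymal markers, and BTNL8 of 37.5%, 6.36% and 4.87%. For CFAP221 the thinned shares were 33.9%, 8.97% and 5.71%, and for LINC02268 28.3%, 8.43% and 7.76%. The thinned share in other cells was above that in cells with mesenchymal markers for all 5 genes. All but 30 of the cells with mesenchymal markers were themselves other cells, and the shares pool cells over cultures and treatments. This difference is therefore a description and was not tested. Free RNA was not measured separately. The unthinned shares were 88.6%, 39.3% and 33.8% for ITGB6, 72.1%, 26.2% and 29.2% for BTNL8, 85.1%, 40.2% and 38.9% for CFAP221 and 78.5%, 41.3% and 50.5% for LINC02268. Pairs of the 5 genes were weakly correlated over the 7172 cells as log values, with Pearson's r between 0.07 for BTNL8 with LINC02268 and 0.31 for AKR1C8 with ITGB6, a description of sparse counts that share the cell's depth.

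To describe the cells without treatment, UMIs were summed per class within the 4 DMSO cultures with at least 10 high-score cells, which the cell table numbers as replicates 2, 3, 4 and 5. They held 25, 18, 24 and 10 high-score cells, with 1213891, 559787, 2553503 and 467597 UMIs. Their 225, 109, 287 and 83 other cells had 11338645, 2857547, 30850985 and 4351623 UMIs. Replicate 3 stood apart by a median of 2.46% mitochondrial UMIs, against 12.3% to 14.9% in the other three. Levels are CPM, the UMIs of a gene scaled to the total UMIs of its class, and a log2 ratio is the mean over the 4 cultures of the ratio within a culture, with 1 CPM added to each level, which understates changes of low genes. Since the rule chose the cells from these values, high-score and other cells are compared as a description, with no test. CPM are not per gene length, so they compare a gene between classes and not genes with each other.

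AKR1C8 had 203.5, 182.2, 221.7 and 237.4 CPM in the high-score cells of replicates 2, 3, 4 and 5, against 52.0, 65.4, 48.0 and 45.5 CPM in the other cells of these cultures (log2 ratio 1.99 ± 0.39, SD, n = 4). ITGB6 had 122.7, 160.8, 107.7 and 175.4 CPM in high-score cells, against 22.8, 30.4, 42.4 and 45.7 CPM in other cells (2.00 ± 0.50). BTNL8 had 145.8, 91.1, 126.9 and 121.9 CPM in high-score cells, against 26.8, 25.2, 27.8 and 43.2 CPM in other cells (1.96 ± 0.40). These 3 score genes were thus about 4-fold apart in the sums per culture. CFAP221 had 85.7, 109, 65.0 and 66.3 CPM in high-score cells and 29.1, 31.5, 30.5 and 28.3 CPM in other cells (1.39 ± 0.31). LINC02268 had 89.8, 101.8, 47.0 and 68.4 CPM in high-score cells and 18.3, 30.1, 24.3 and 28.7 CPM in other cells (1.53 ± 0.58). These values are what the rule selected. When a gene was left out of the score and the top 7% taken again on the other 4, AKR1C8 had 123 CPM in the chosen cells and 63.3 CPM in the rest (log2 ratio 0.94, higher in 4 of 4 cultures). In the same way ITGB6 had a log2 ratio of 0.68 and BTNL8 of 0.58 (4 of 4 cultures each), CFAP221 of 0.81 (3 of 3 cultures with enough cells) and LINC02268 of 0.41 (3 of 4). These 4-gene scores shared 69.9% to 81.5% of the 502 cells. The score genes had been picked together from earlier clusters of these same cells, so these ratios are a description and no independent support.

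**Figure D2:**
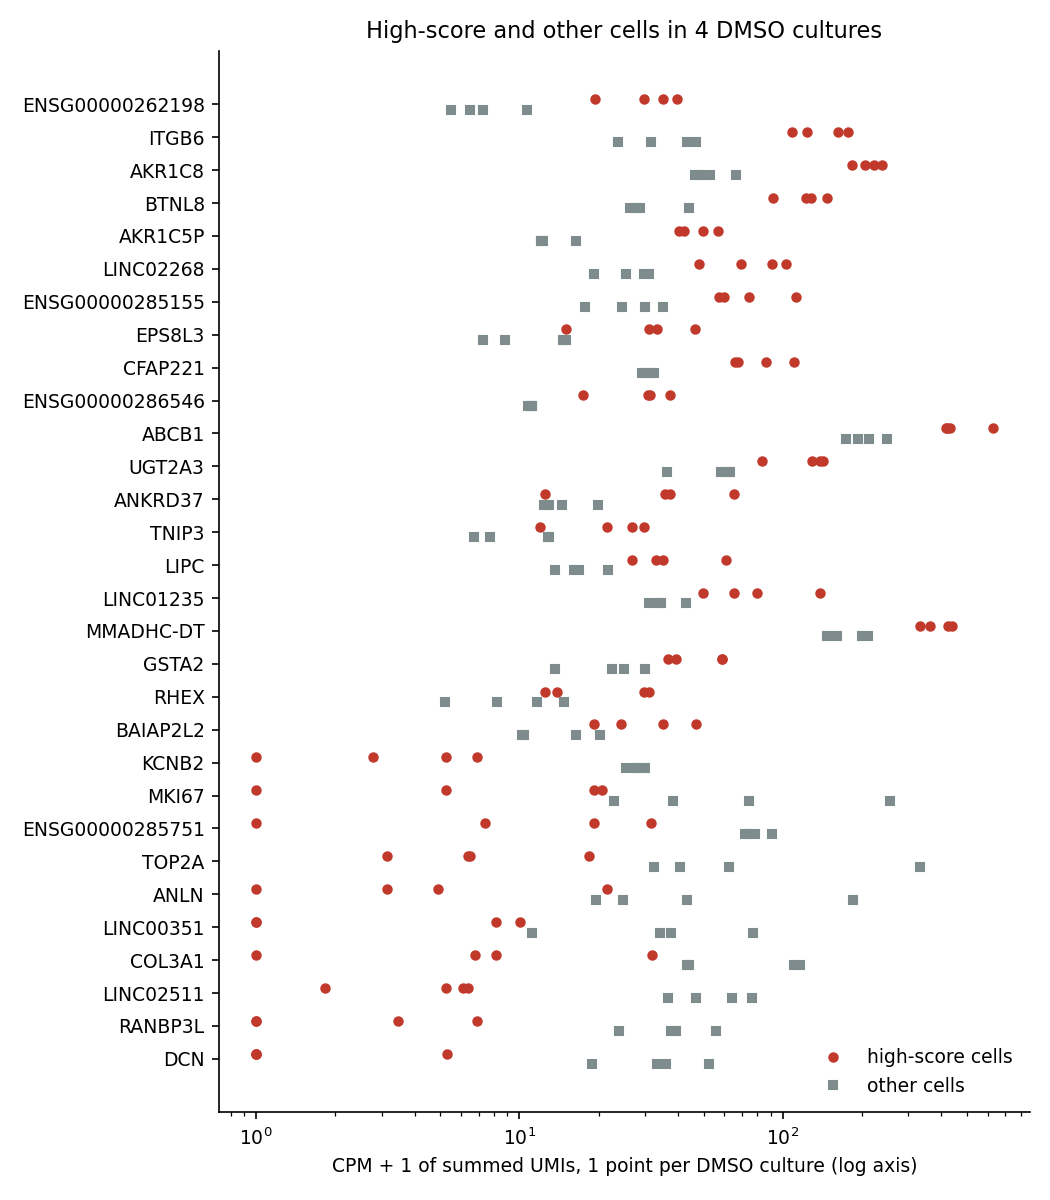
Levels (x axis, CPM plus 1, log scale) of the 5 score genes and the 15 highest and 10 lowest genes (y axis) in the high-score and the other cells of the 4 DMSO cultures, with a point for each culture. AKR1C8 lay between 182.2 and 237.4 CPM in high-score cells and between 45.5 and 65.4 CPM in other cells, while DCN and MKI67 were lower in the high-score cells of every culture.

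Over the 8326 genes with at least 20 CPM in the higher class, the median log2 ratio was −0.09. Only 10 genes (0.120%) were at least 2-fold higher in high-score cells in every DMSO culture, 4 of them score genes, and 55 (0.661%) were at least 2-fold lower. With the score taken from counts thinned to 5000 UMIs per cell, which kept 268 of the 502 cells, the counts were 3 and 21. In every culture 930 genes (11.2%) were higher and 1912 (23.0%) lower, to whatever extent.

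Outside the score, the highest ratio was that of ENSG00000262198, a long non-coding RNA, with an average of 30.0 CPM in high-score cells and 6.50 CPM in other cells (log2 ratio 2.04 ± 0.86). It was followed by a pair of genes beside score genes. AKR1C5P, an annotated pseudogene 18694 bases from AKR1C8 on the same strand, had 41.2, 39.3, 48.6 and 55.6 CPM in high-score cells, against 11.0, 15.4, 11.0 and 11.3 CPM in other cells of replicates 2, 3, 4 and 5 (log2 ratio 1.84 ± 0.40). ENSG00000285155, a long non-coding RNA that overlaps ITGB6 on the same strand, had 56.0, 73.2, 58.7 and 111.2 CPM in high-score cells, against 16.8, 23.4, 28.8 and 34.0 CPM in other cells (1.49 ± 0.33). Both are uncertain as separate genes, since aldo-keto reductase copies are near-identical and reads from overlapping genes on 1 strand cannot be assigned. Whether the counting used strand is not stated.

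ABCB1, the drug efflux pump P-glycoprotein of the bile canaliculus, had 430, 627, 420.2 and 414.9 CPM in high-score cells, against 191.5, 246.7, 172.4 and 212.1 CPM in other cells of replicates 2, 3, 4 and 5 (log2 ratio 1.19 ± 0.17). UGT2A3, which conjugates bile acids and other substrates with glucuronic acid, had 141.7, 82.2, 137.8 and 128.3 CPM in high-score cells, against 62.2, 35.4, 61.4 and 57.2 CPM in other cells (1.17 ± 0.02). GSTA2, a glutathione transferase of hepatocytes, had 57.7, 35.7, 38.4 and 57.7 CPM in high-score cells and 24.0, 12.6, 29.0 and 21.4 CPM in other cells (1.11 ± 0.49). All 3 act in the handling of foreign compounds. EPS8L3, of a family that regulates actin, averaged 30.4 CPM in high-score cells and 10.4 CPM in other cells (1.42), and BAIAP2L2, a membrane-bending protein of epithelial protrusions, 30.4 and 13.3 CPM (1.11). LIPC, the hepatic lipase, averaged 38.0 CPM in high-score cells and 16.1 CPM in other cells (1.14), and MMADHC-DT, a divergent transcript, 389 and 179 CPM (1.12). The remaining genes among the 15 with the highest ratios were the non-coding ENSG00000286546 (1.35) and LINC01235 (1.13), the hypoxia-responsive ANKRD37 (1.14), TNIP3, an inhibitor of NF-κB signalling (1.14, but −0.25 when the score was taken from counts thinned to 5000 UMIs), and RHEX (1.11). Of these 5, all but LINC01235 averaged under 40 CPM in high-score cells, and RHEX and ANKRD37 varied most between cultures, with SDs of 0.99 and 0.97.

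The 10 lowest ratios included 2 matrix genes, 3 genes of dividing cells and 3 non-coding RNAs. DCN, the matrix proteoglycan decorin, had 0, 0, 4.31 and 0 CPM in high-score cells, against 17.8, 35, 32.2 and 51.5 CPM in other cells of replicates 2, 3, 4 and 5 (log2 ratio −4.44). COL3A1, a fibrillar collagen, had 5.77, 7.15, 30.9 and 0 CPM in high-score cells, against 43.0, 42.3, 115.7 and 108.9 CPM in other cells (−3.44). TOP2A, the topoisomerase of dividing cells that etoposide targets, had 17.3, 5.36, 5.48 and 2.14 CPM in high-score cells, against 330, 39.5, 61.3 and 31.5 CPM in other cells (−3.37). The proliferation marker MKI67 had 18.1, 0, 19.6 and 4.28 CPM in high-score cells, against 254, 37.4, 73.2 and 21.8 CPM in other cells (−3.24). Among other cells both genes were highest in replicate 2. ANLN, needed for cytokinesis, had a log2 ratio of −3.38, RANBP3L, a nuclear export factor, of −4.08, and KCNB2, a potassium channel, of −3.13. The non-coding LINC02511, LINC00351 and ENSG00000285751 had ratios of −3.61, −3.43 and −3.26.

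Gene lists of cell types and pathways were counted in the same way, by members above or below in every DMSO culture among those with at least 20 CPM, beside the shares of 11.2% and 23.0% over all genes. Genes of these lists that were not 2-fold apart in every culture were named after their values were seen. Of 13 measured hepatocyte secreted and metabolic genes, 4 were higher and 3 lower (median −0.37). Albumin (ALB) had 10153, 8487, 11211 and 22658 CPM in high-score cells, against 6362, 4375, 7850 and 15350 CPM in other cells of replicates 2, 3, 4 and 5 (0.68 ± 0.20). APOB, the protein of very low-density lipoprotein, averaged 5315 CPM in high-score cells and 3598 CPM in other cells (0.56), SERPINA1 2688 and 1962 CPM (0.48), and fibrinogen β (FGB) 1339 and 925 CPM (0.47). In contrast, APOA1 averaged 90.6 CPM in high-score cells and 178 CPM in other cells (−1.09), and CPS1, the first enzyme of the urea cycle, 162 and 237 CPM (−0.66). CYP2E1, AHSG and PCK1, genes of mature hepatocytes, were near 0. CYP2E1 had 0.82, 1.79, 1.18 and 0 CPM in high-score cells, against 16.9, 16.8, 15.8 and 14.9 CPM in other cells (−3.23). The plasma glycoprotein AHSG averaged 0.848 CPM in high-score cells and 9.08 CPM in other cells (−2.49), and PCK1, of gluconeogenesis, 0.999 and 6.07 CPM (−1.90). These last 3 genes were under 20 CPM in both classes and outside the counts.

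Among 6 measured hepatocyte transcription factors, 4 were higher and none was lower (median 0.28). NR1H4, the bile acid receptor FXR, had 294.1, 343, 251.8 and 280.2 CPM in high-score cells, against 154.3, 167.3, 153.4 and 180.6 CPM in other cells of replicates 2, 3, 4 and 5 (0.82 ± 0.19). ONECUT1 (0.30) and PROX1 (0.25) were also higher in 4 of 4 cultures, while HNF4A averaged 119 CPM in high-score cells and 109 CPM in other cells and was higher in 2 of 4.

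Of 14 measured drug metabolism genes, 3 were higher and none was lower in every culture (median −0.18). GSTA1 averaged 294 CPM in high-score cells and 175 CPM in other cells (0.69), and UGT1A1, which conjugates bilirubin, 37.9 and 24.3 CPM (0.62). CYP3A5 averaged 2865 CPM in high-score cells and 1809 CPM in other cells and was higher in 3 of 4 cultures. CYP2A6 had no UMI in high-score cells and 150 in other cells, which is at least 4.85-fold lower when 3 UMIs are taken as the floor over the group.

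Of 8 measured genes that make or transport bile acids, 1 was higher and 4 were lower (median −0.18). The higher gene was the canalicular pump ABCC2, with an average of 500 CPM in high-score cells and 346 CPM in other cells (0.51). The bile salt export pump ABCB11 averaged 19.3 CPM in high-score cells and 25.7 CPM in other cells (−0.56), and the uptake carrier SLCO1B3 24.6 and 43.4 CPM (−0.75).

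Biliary genes gave no clear direction. Of 10 measured cholangiocyte genes, 2 were higher and 2 lower (median 0.19). PKHD1, a protein of the biliary primary cilium, averaged 67.2 CPM in high-score cells and 36.5 CPM in other cells (0.77), and the RNA-binding BICC1 934 and 728 CPM (0.33). KRT19, a keratin of bile ducts, was higher in 3 of 4 cultures (0.48). EPCAM and AQP1 had no UMI in the high-score cells of these cultures and 23 and 19 in the other cells, too few to show a difference. Of 3 measured hepatic progenitor genes 2 were lower, among them NCAM1 (35.6 and 84.6 CPM, −1.26). With hepatocyte and biliary genes above and below in the same cells, no cell type name is given here beyond the score.

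Epithelial genes were mostly higher, while mesenchymal genes did not move together. Of 10 measured genes of epithelial junctions and keratins, 8 were higher and none was lower (median 0.33). CLDN1, a tight junction protein, averaged 528 CPM in high-score cells and 343 CPM in other cells (0.61), OCLN 22.6 and 14.6 CPM (0.60), and E-cadherin (CDH1) 31.0 and 21.9 CPM (0.48). KRT8 (0.34) and KRT18 (0.32) followed. In the mesenchymal list, 2 of 4 measured genes were lower and none was higher (median −2.0). These were DCN and COL3A1, already named among the 10 lowest ratios, while ACTA2 (−0.56) and RGS5 (−0.04) were not lower in every culture. COL1A1 had a log2 ratio of −0.13. The summed level of the list was 106 to 152 CPM in high-score cells and 203 to 311 CPM in other cells. PDGFRB, a receptor of stellate cells, averaged 1.86 CPM in high-score cells and 12.9 CPM in other cells, and the proteoglycan LUM 1.78 and 14.4 CPM. COL1A2, VIM and THY1 were at 0 in high-score cells, but they had 0, 6 and 4 UMIs in other cells too, so they say nothing here. KDR, a receptor of endothelium, was the measured endothelial gene, with 22.2, 26.8, 20.4 and 15.0 CPM in high-score cells, against 51.8, 64.0, 93.2 and 80.0 CPM in other cells, and CDH5 and LYVE1 had 0 UMIs in high-score cells and 4 and 5 in other cells. CD68 was the measured immune gene and was higher (0.68), while CD3E, MS4A1 and NKG7 had 0 UMIs in high-score cells and 2, 1 and 0 in other cells.

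All 8 measured G2/M genes were lower in high-score cells in every culture (median −2.62), and 6 of them at least 2-fold. CENPF, a kinetochore protein, had 21.4, 0, 15.3 and 8.55 CPM in high-score cells, against 273.1, 30.4, 56.0 and 33.3 CPM in other cells of replicates 2, 3, 4 and 5 (−3.06). The sum over the list was 27.8 to 123 CPM in high-score cells and 170 to 1503 CPM in other cells. Of 4 measured S phase genes, 2 were lower (median −0.72).

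The families of the score genes did not follow them as a whole. Among 11 measured integrin subunits, ITGB6 and ITGAV were higher and 3 were lower (median −0.21). ITGAV, the partner of β6, had 232.3, 364.4, 255.3 and 633 CPM in high-score cells, against 199.5, 215.2, 223.9 and 274.4 CPM in other cells of replicates 2, 3, 4 and 5 (0.59 ± 0.48). ITGB8, whose product also activates TGF-β with αv, averaged 21.8 CPM in high-score cells and 37.7 CPM in other cells (−0.97), and ITGA3 (−0.83) and ITGA8 (−0.90) were lower as well. ITGB1 (0.06) and ITGB5 (−0.21) went either way between cultures. Of 15 measured genes of the TGF-β axis, 2 were higher and 3 lower (median −0.07). The ligand TGFB1 averaged 17.9 CPM in high-score cells and 28.7 CPM in other cells (−0.77), and the latency protein LTBP2 had a log2 ratio of −0.97.

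Of 7 measured aldo-keto reductases, 2 were higher and none was lower (median 0.42). These were AKR1C8, which the rule itself selected, and AKR1C1. AKR1C1 had 560.2, 478.8, 538.9 and 406.3 CPM in high-score cells, against 418.6, 322, 341.4 and 341.3 CPM in other cells of replicates 2, 3, 4 and 5 (0.47 ± 0.18). AKR1C2 (0.10), AKR1C3 (0.11) and AKR1C4 (−0.12) showed no common direction, and AKR1B10 was higher in 3 of 4 cultures (0.55). Of 19 measured NRF2 targets, 2 were higher (AKR1C1 and ABCC2) and 6 lower (median −0.11), among them GCLM, of glutathione synthesis (−0.71). Of 2 measured butyrophilins, BTNL8 was higher, and its partner BTNL3 had no UMI in high-score cells and 7 in other cells. In the intestinal list, BTNL8 was the only measured gene, and CDX1, CDX2, MUC5AC, TFF1, TFF2, TFF3, FABP2 and BTNL3 had 0 UMIs in high-score cells and at most 7 in other cells, apart from CDX1 with 24, so no difference was detectable at this depth. Among 6 measured genes of motile cilia, CFAP221 and CFAP70 (0.37) were higher and CFAP47 (−0.75) lower, and FOXJ1, the master factor of motile cilia, had 0 UMIs in high-score cells and 1 in other cells.

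Unfolded protein response genes (14 measured, 2 higher, none lower, median 0.14) and p53 targets (18 measured, 3 higher, 6 lower, median −0.13) lay near the median of all genes. The 4 measured nuclear-retained RNAs, a sign of RNA quality, had a median of −0.03 and none was on 1 side in every culture.

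Within 100000 bases of each score gene, other genes mostly did not share its pattern. Beside AKR1C8, the pseudogenes AKR1C5P (1.84) and AKR1C7P (1.03) were higher in 4 of 4 cultures, while AKR1C4, which begins 10275 bases away on the opposite strand, was higher in 1 of 4. Beside ITGB6, PLA2R1 (−0.60) and RBMS1 (−0.21) were each higher in 1 of 4 cultures. Beside BTNL8, BTNL9 had a log2 ratio of 0.12 and ZFP62 of −0.49, beside CFAP221, SCTR had −0.89 and PTPN4 0.19, and beside LINC02268, LINC02269 had −0.02 and FBXO8 −0.11.

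Along the score, the levels changed by steps and not only at the limit (the plot of levels by score). In the pooled DMSO cells, bands of score 0, 0 to 0.2, 0.2 to 0.4 and 0.4 to the limit and the high-score cells held 152, 264, 179, 109 and 77 cells. They had 3516770, 18926755, 16428385, 10526890 and 4794778 UMIs in this order, so cells at score 0 had the fewest UMIs per cell. Replicate 4 gave the most UMIs to the pool. The part of depth in the levels along the score was not tested. ALB had 2465, 5618, 10047, 10788 and 11742 CPM in these bands, and NR1H4 34.1, 84.5, 204, 254 and 276 CPM. Most of the increase of both lay below the limit. ABCB1 had 69.4, 112, 250.8, 250.8 and 446 CPM, EPS8L3 5.40, 6.29, 12.8, 20.5 and 34.4 CPM and UGT2A3 16.5, 33.3, 74.8, 97.9 and 131 CPM, with a further step into the high-score cells. DCN had 107, 45.2, 12.3, 8.36 and 2.29 CPM, COL3A1 144.7, 153.9, 57.6, 27.1 and 18.8 CPM and MKI67 225, 138, 77.2, 64.2 and 15.4 CPM. CYP2E1 was highest in the middle, with 14.2, 15.1, 22.5, 8.17 and 1.04 CPM. DCN and MKI67 were highest at score 0 and COL3A1 in the band next to it, and all values are sums over cells of 4 cultures with no replicate error.

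**Figure D3:**
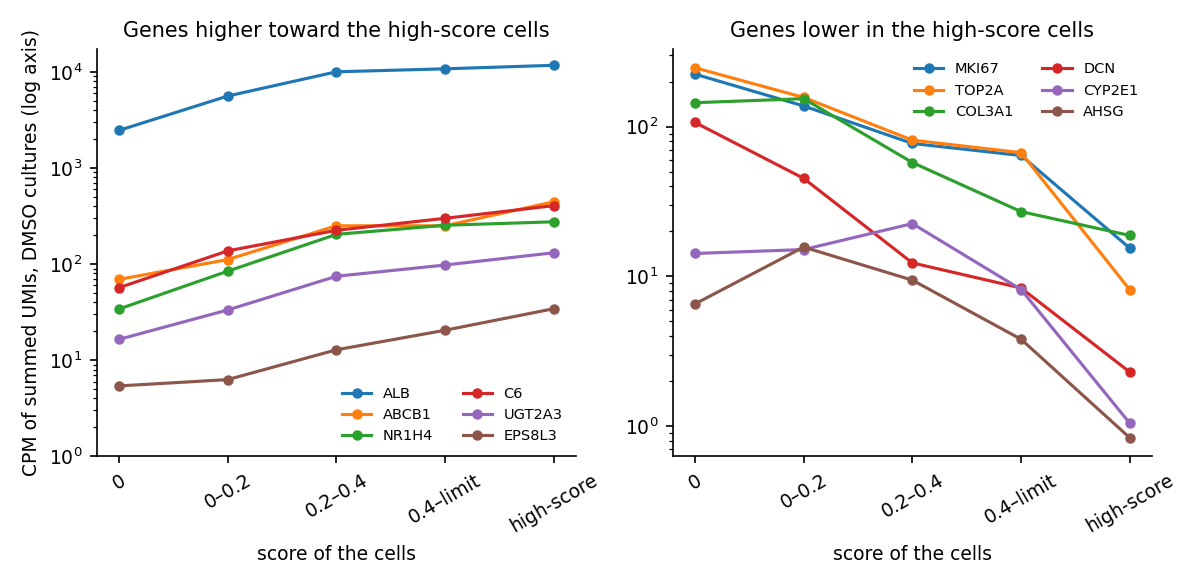
Levels (y axis, CPM, log scale) in DMSO cells pooled over 4 cultures, by score band (x axis, low to high, the last being the high-score cells). ALB and NR1H4 level off below the limit, ABCB1 and UGT2A3 are higher still in the high-score cells, and DCN and MKI67 are lower toward high scores.

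The high-score cells were set beside the top 7% of cells by each of 3 other scores. The TACR1 group (TACR1, IL1R2 and GPM6B) held 6 of the 502 cells (1.20%), the ST18 group (ST18, CYP2C19, GBA3 and SORBS2) 40 (7.97%) and the GRM3 group (GRM3, ONECUT1 and WDR72) 51 (10.2%), where each takes 7.00% of all scored cells. In pooled DMSO cells, ALB was 11742 CPM in high-score cells, 24334 CPM in the ST18 group, 21575 CPM in the GRM3 group and 2521 CPM in the TACR1 group. CYP2E1 was 1.04 CPM in high-score cells, 62.0 CPM in the ST18 group and 52.2 CPM in the GRM3 group. ABCB1 was 446 CPM in high-score cells, 294 CPM in the ST18 group, 297 CPM in the GRM3 group and 77.8 CPM in the TACR1 group, and ITGAV was 299, 156, 190 and 197 CPM in the same order. UGT2A3 was 131 CPM in high-score cells, 89.7 CPM in the ST18 group and 94.8 CPM in the GRM3 group, and GSTA2 was 44.8, 57.7 and 31.6 CPM in the same order. High-score cells thus had less ALB and CYP2E1 than the ST18 and GRM3 groups, and more ABCB1, ITGAV and UGT2A3. Some other genes that were far apart between high-score and other cells lay as far or further from the other cells in 1 or both of these groups. NR1H4 was 276 CPM in high-score cells, 343 CPM in the ST18 group and 331 CPM in the GRM3 group, CLDN1 457, 614 and 696 CPM, MKI67 15.4, 2.27 and 3.68 CPM, and COL3A1 18.8, 30.5 and 1.10 CPM, in the same order. Further genes lay nearer the other cells in both groups, such as EPS8L3 with 34.4, 18.6 and 13.6 CPM in the same order and 11.4 CPM in other cells. These groups were chosen from the same cells, and the differences are not tested.

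The same genes were then followed outside the DMSO cultures. Another 19 cultures had at least 10 high-score cells, and the score genes were higher there in 19 of 19, as the rule implies. AKR1C5P, ENSG00000285155, UGT2A3, MMADHC-DT and BAIAP2L2 were higher in 19 of 19, ABCB1 and GSTA2 in 18, EPS8L3 in 17, and ANKRD37 and LIPC in 14. COL3A1, TOP2A, MKI67, ANLN, RANBP3L and LINC02511 were lower in 19 of 19 and DCN in 18. ALB, APOB and SERPINA1 were higher in 19 of 19, NR1H4 in 18 and HNF4A in 16, and CYP2E1 was lower in 18. ONECUT1, higher in every DMSO culture, was higher in 6 of 19. The same score chose the cells in all cultures, and no share over all genes stands beside these counts.

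Cells left out by the rule did not set the limit. Of 3937 cells with over 20% mitochondrial UMIs from the same treatments, 332 (8.43%, exact 95% binomial interval 7.58% to 9.34%) scored at or above it. Set against the 3605 below it, all 15 of the highest and all 10 of the lowest genes kept their direction. Their log2 ratios were smaller in size than in the DMSO cultures, with 0.62 against 1.19 for ABCB1 and 0.43 against 1.11 for RHEX. The same score split these cells, so the count is a description, and no share over all genes stands beside it. AKR1C5P was 46.0 CPM at or above the limit and 12.6 CPM below it, ABCB1 357 and 232 CPM, and MKI67 25.2 and 179 CPM. With rotenone, an inhibitor of mitochondrial respiration, 0 of 449 cells at 0.2 µM and 0 of 523 cells at 0.4 µM reached the limit, and the intervals end at 0.818% and 0.703%. With 20 µM cycloheximide 10 of 262 cells did (3.82%, 1.85% to 6.91%).

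The score genes themselves were lower than in every DMSO culture with rotenone, and all but LINC02268 with 20 µM cycloheximide. Over all filtered cells of a culture, AKR1C8 was 5.13 CPM in the culture with 0.2 µM rotenone and 2.10 and 5.32 CPM in those with 0.4 µM, 19.5 and 28.4 CPM with 20 µM cycloheximide, and 61.3 to 84.6 CPM in the 4 DMSO cultures. ITGB6 was 3.45 CPM with 0.2 µM rotenone, 4.90 and 12.1 CPM with 0.4 µM, and 32.4 to 58.3 CPM with DMSO. BTNL8 was 1.90 and 9.63 CPM with 20 µM cycloheximide, 3.18 CPM with 0.2 µM rotenone, and 35.3 to 50.8 CPM with DMSO. For the genes given, these treatments lay below every DMSO culture. LINC02268 had 21.34 and 33.72 CPM with 20 µM cycloheximide, against 25.17 to 41.85 CPM with DMSO. tBHQ, with 1 culture a dose, gave BTNL8 levels of 14.4, 12.4 and 35.7 CPM at 3, 30 and 300 µM. In these sums over mixed cells, fewer cells of a type and less RNA per cell cannot be told apart.

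The share of high-score cells was then compared between treatments, over 33 cultures with at least 30 scored cells (495 high-score cells). It ran from 1.6% to 15.4% with a median of 6.80%. The 4 DMSO cultures had 10%, 14.2%, 7.72% and 10.8% in replicates 2, 3, 4 and 5 (10.7% ± 2.67, SD), and the exact 95% binomial interval of replicate 2, with 250 cells, was 6.58% to 14.4%. Over the 10 treatments tested the treated cultures averaged less than the DMSO cultures, and none passed the exact two-sided permutation test after adjustment. Etoposide at 25 µM had 4.81% and 3.56%, below every DMSO culture (difference −6.48 percentage points, exact permutation p = 0.0667, the smallest that 2 against 4 cultures allow, adjusted p = 0.333). Tunicamycin at 0.1 µM had 2.46% and 5.91% (−6.47 points, exact permutation p = 0.0667, adjusted p = 0.333). No treatment with 2 cultures could have reached an unadjusted p of 0.05, and for troglitazone and medium the smallest possible was 0.0286. After adjustment over the 10 treatments none could have passed, so the lack of a call says nothing about the shares.

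At the lower doses etoposide averaged 7.62% at 0.25 µM and 8.17% at 2.5 µM, and tunicamycin 6.78% at 0.001 µM and 6.47% at 0.01 µM. Cycloheximide averaged 9.03% ± 7.72 at 0.2 µM and 6.08% ± 1.02 at 2 µM, with 3.57% and 14.5% in the 2 cultures of the lower dose. The adjusted p of the exact permutation tests for these 6 lay between 0.4 and 0.733. Troglitazone had 2%, 15.4%, 5.88% and 13.8% in its 4 cultures (9.28% ± 6.39, exact permutation p = 0.686), and medium had 4.24%, 7.73% and 14.6% in its 3 (8.87% ± 5.29, exact permutation p = 0.6). Without their own replicate 2 the differences from DMSO turned, to 1.04 points for troglitazone and 0.52 points for medium, and without its replicate 1 that of 0.2 µM cycloheximide turned to 3.83 points. Single cultures had 10.1%, 2.11% and 3.25% with brefeldin A at 0.001, 0.01 and 0.1 µM and 1.6%, 1.92% and 8.93% with tBHQ at 3, 30 and 300 µM.

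The names of these cultures carry a first number from 3 to 6, called run here, whose meaning no source used here gives. Every tested culture with etoposide, tunicamycin or cycloheximide was in run 3 or 4, while the DMSO cultures were in runs 3, 4, 5 and 6. Treatment and run are thus partly mixed in the comparisons of shares and of gene levels. Within run 3, 10 of 10 cultures with another treatment lay below the DMSO culture, within run 4 it was 13 of 15, within run 5 1 of 2, and within run 6 0 of 2. Cultures with few mitochondrial UMIs (a median of 1.23% to 3.24%) and few UMIs per cell had shares of 14.2% (DMSO replicate 3), 15.4% (troglitazone replicate 3) and 14.5% (cycloheximide at 0.2 µM, replicate 2), which were 3 of the 4 highest, and medium replicate 3, with 22 cells, had 4.55%. The part of mitochondrial RNA and depth in the shares was not tested. Without DMSO replicate 3, the difference was −5.31 points for 25 µM etoposide and −5.30 points for 0.1 µM tunicamycin.

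**Figure D4:**
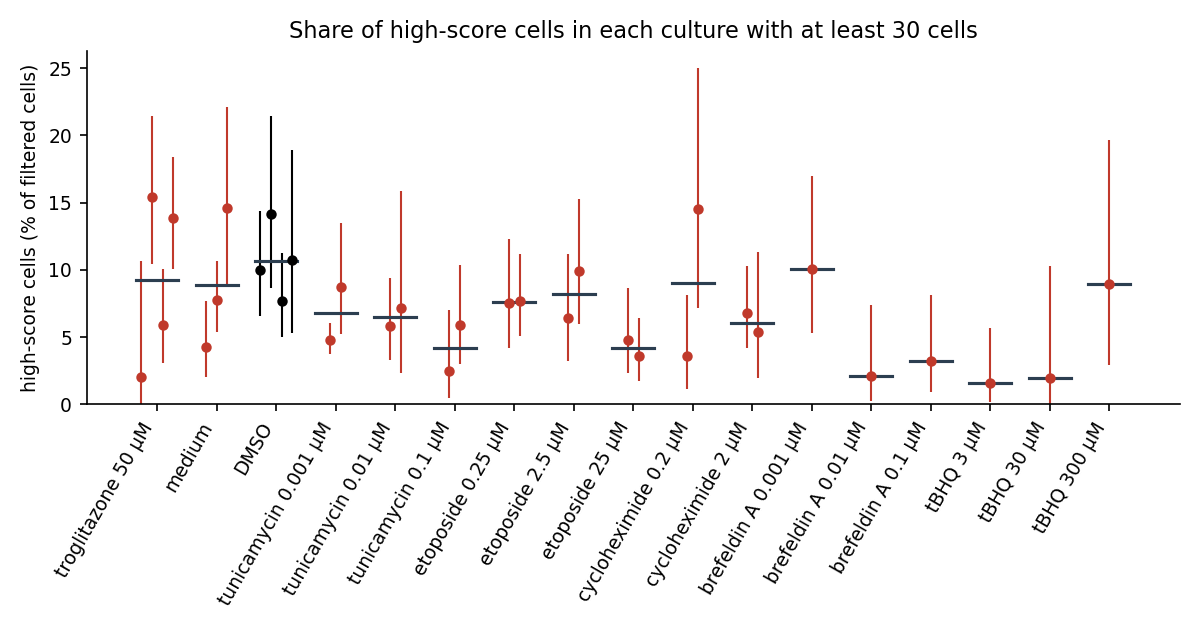
Share of high-score cells (y axis, percent of the scored, that is filtered, cells of a culture) for each culture with at least 30 scored cells, by treatment (x axis), with exact 95% binomial intervals for counting error and a dash at the mean of a treatment. DMSO cultures lie between 7.72% and 14.2%, and both cultures with 25 µM etoposide lie at 3.56% and 4.81%.

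Gene levels within high-score cells were then compared between treated and DMSO cultures on summed UMIs by the quasi-likelihood test of edgeR, for treatments with at least 2 cultures of at least 10 high-score cells. Etoposide at 25 µM changed 2 of 10964 genes (0.0182%), both higher. COL8A1, a short-chain collagen of basement membranes, had 359.7 and 255.6 CPM with 25 µM etoposide, against 65.9, 66.1, 105 and 42.8 CPM with DMSO (log2 change 2.07 ± 0.29, SE, adjusted p = 0.0126). POSTN, the matrix protein periostin, had 112.8 and 75.9 CPM with 25 µM etoposide, against 14, 17.9, 16.1 and 2.14 CPM with DMSO (2.78 ± 0.38, adjusted p = 0.0126). The treated and the DMSO cultures did not overlap for either gene. In other cells the same contrast gave log2 changes of 0.28 for COL8A1 and 0.32 for POSTN, and no gene of 19971 (0%) passed the test there (960 at an unadjusted p under 0.05). The difference between the classes passed the test for COL8A1 (1.76, adjusted p = 0.0477) and not for POSTN (2.35, adjusted p = 0.0551).

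At the lower doses of etoposide COL8A1 had 53.3 and 174.8 CPM at 0.25 µM and 62.6 and 263.6 CPM at 2.5 µM, and POSTN 62.0 and 9.99 CPM at 0.25 µM and 21.9 and 2.94 CPM at 2.5 µM, none past the test. With 0.001 µM tunicamycin, POSTN had 54.8 and 96.6 CPM (2.44, adjusted p = 0.19). Each culture with 25 µM etoposide rested on 10 high-score cells, and without DMSO replicate 2 or without DMSO replicate 3 no gene passed. The 4 tested genes of the mesenchymal list had a median log2 change of −0.16 in these cells. DESeq2 called 4 genes, and with the top 5% or the top 10% of cells edgeR called 0. A block by run, whose numbers did not pair the cultures, also gave 0.

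Etoposide at 0.25 µM changed 1 of 12192 genes (0.00820%). ENSG00000286385, an unnamed gene, fell to 1.57 and 1.87 CPM with 0.25 µM etoposide, against 55.2, 109, 33.3 and 106.9 CPM with DMSO (log2 change −5.28 ± 0.64, adjusted p = 0.0123). In other cells its log2 change was 0.53, and the difference between classes did not pass (−5.65, adjusted p = 0.0838). Without DMSO replicate 3 or etoposide replicate 1 no gene was called, and without etoposide replicate 2 the count was 15.

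**Figure D5:**
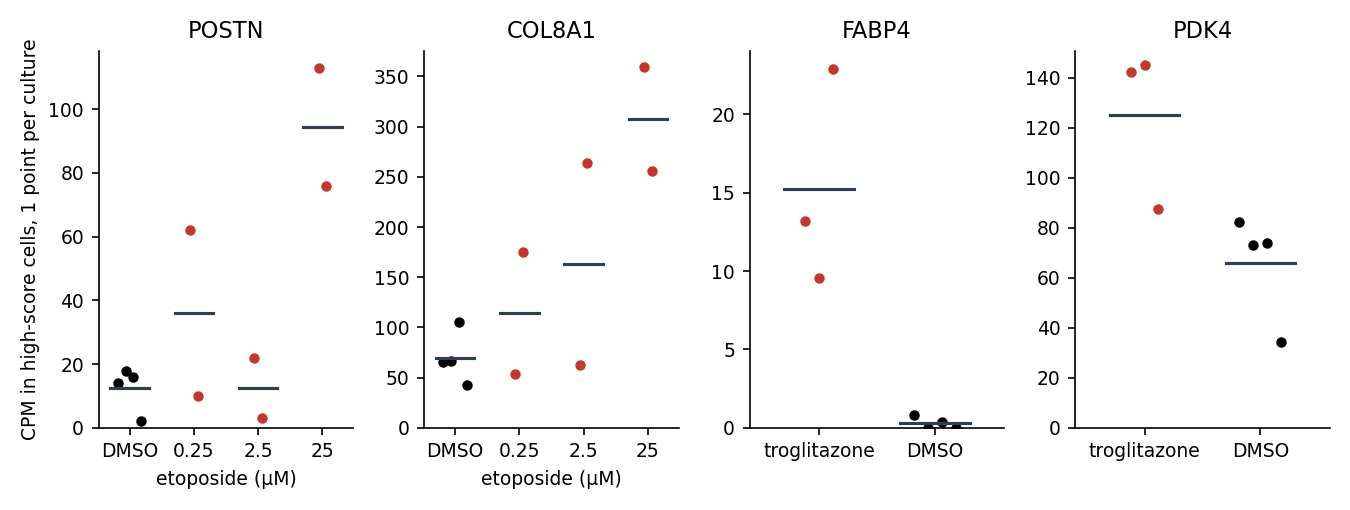
Levels in high-score cells (y axis, CPM) of POSTN and COL8A1 by etoposide dose (x axis, DMSO, then 0.25, 2.5 and 25 µM) and of FABP4 and PDK4 with troglitazone and with DMSO, with a point for each culture. COL8A1 was 359.7 and 255.6 CPM at 25 µM, against at most 105 CPM with DMSO, while 0.25 and 2.5 µM each had a culture on either side.

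Tests of the difference between high-score and other cells passed for 1 of 15967 genes (0.00626%) at 2.5 µM etoposide and 6 of 15904 (0.0377%) at 25 µM. At 2.5 µM the gene was ANLN, with 126.7 and 13.7 CPM in high-score cells with etoposide, against 20.6, 0, 3.92 and 2.14 CPM with DMSO (difference of log2 changes 2.73, adjusted p = 0.0214), and its change within high-score cells did not pass (3.12, adjusted p = 0.547). A single culture carried the level, and the call was lost without it (etoposide replicate 1) and without DMSO replicate 2 or 4. At 25 µM the other 5 genes were ENSG00000225096 (5.21), ENSG00000280241 (2.12), ENSG00000240241 (−2.51), LINC02197 (−1.45) and LMCD1 (−1.54), with adjusted p between 0.0477 and 0.0492. LMCD1, a LIM domain regulator of transcription, had 57.5 and 75.9 CPM in high-score cells with 25 µM etoposide, against 156.5, 214.4, 128.5 and 410.6 CPM with DMSO. Without DMSO replicate 2 none of the 6 differences passed, and without etoposide replicate 1 the count was 37.

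No gene passed in high-score cells with 2.5 µM etoposide (0 of 10682, 0%), medium (0 of 10890, 0%), troglitazone (0 of 11755, 0%) or 0.001 µM tunicamycin (0 of 12398, 0%) by edgeR, with 326, 289, 263 and 312 genes at an unadjusted p under 0.05. DESeq2 called 1, 0, 2 and 2 genes, and with a block by run edgeR did call genes at 2.5 µM etoposide, as given at the end. Interaction tests called none for 0.25 µM etoposide, medium, troglitazone and 0.001 µM tunicamycin (0%), with 514, 403, 650 and 327 genes at an unadjusted p under 0.05. None of the 5 score genes was called in any treatment. AKR1C8, for example, averaged 152 CPM in high-score cells with 25 µM etoposide and 211 CPM with DMSO (−0.48, adjusted p = 1.0). No gene of the lists on stress, liver and cell types passed within high-score cells under any of the 6 treatments tested, G2/M included, whose tested members had median log2 changes of 2.32 at 0.25 µM, 2.29 at 2.5 µM and −2.02 at 25 µM etoposide (7, 6 and 2 genes).

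Troglitazone changed 13 of 18197 genes in other cells (0.0714%), all higher. FABP4, a fatty acid carrier and PPARγ target, had 13.2, 9.52 and 22.9 CPM in high-score cells with troglitazone, against 0.82, 0, 0.39 and 0 CPM with DMSO (log2 change 4.90 ± 0.70, adjusted p = 0.0536). In other cells its log2 change was 6.08 (adjusted p = 2.43e-05). PDK4, which restrains glucose oxidation, had 142.1, 145.2 and 87.3 CPM in high-score cells with troglitazone, against 82.4, 73.2, 74.0 and 34.2 CPM with DMSO (0.88, adjusted p = 1.0), and in other cells 1.21 (adjusted p = 0.00782). In high-score cells the treated cultures lay above the DMSO cultures for both genes, neither passed the test, and no difference between the classes passed.

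Cycloheximide at 0.2 and 2 µM, the 2 higher doses of tunicamycin and the lowest of brefeldin A had a single culture with at least 10 high-score cells, so their log2 ratios to pooled DMSO high-score cells carry counting error only. With 2 µM cycloheximide (20 cells), HSPA5, the chaperone BiP, was 131 CPM against 377 CPM with DMSO (−1.53, exact 95% interval −1.75 to −1.30), ALB 5401 against 11742 CPM (−1.12) and MDM2, a p53 target, 1643 against 1043 CPM (0.66). With 0.2 µM cycloheximide ALB was 3523 CPM (−1.74). With 0.1 µM tunicamycin (11 cells), HERPUD1, of protein degradation at the endoplasmic reticulum, was 230 against 131 CPM with DMSO (0.82), DDIT3 202 against 128 CPM (0.66) and HSPA5 499 against 377 CPM (0.40). With 0.001 µM brefeldin A (12 cells), HERPUD1 was 200 against 131 CPM (0.62), but HSPA5 (−0.08) and DDIT3 (−0.17) were not higher. At 0.01 µM tunicamycin (15 cells) HERPUD1, DDIT3 and HSPA5 had log2 ratios of 0.01, −0.14 and 0.12. HERPUD1 had 0.50 with 0.2 µM cycloheximide, where HSPA5 had −0.48.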

How the data were processed

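The authors deposited a matrix of UMI counts, one value per gene and cell, with a cell table and a gene table. Per the authors' supplementary methods, the Parse pipeline (version and annotation not given in the sources used here) read barcodes, aligned reads to GRCh38 and collapsed identical UMIs. The cells and the gene lists were chosen with earlier results of these data known. Cells were scored and filtered as the report states. Counts were summed per culture and class of cells, for cultures with at least 30 scored or 10 high-score cells. Shares were compared by exact permutation over cultures. Treatment effects were tested with edgeR 4.0.16 (quasi-likelihood, total-count scaling, filterByExpr, Benjamini-Hochberg adjusted p of 0.05, culture as a block for the difference between classes), with DESeq2 1.42.0 as an alternative, in R 4.3.3. Scripts were tested on simulated data. Sums and shares used Python 3.11.15 with numpy 2.4.6, scipy 1.17.1 and pandas 2.3.3, and intervals cover counting error only. Alternatives covered the share of cells taken, thinning, the score genes, cell filters, scaling, gene filters and each culture left out.

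Genes were named as score genes, as the 15 highest and 10 lowest mean log2 ratios with at least 20 CPM in the higher class and the same direction in every DMSO culture, as list members 2-fold apart in every DMSO culture (the 3 most abundant where there were over 5), or as the 5 largest rises and falls past the test. The choice of any other gene came after its values were seen. Positions came from GENCODE 44, which held 38004 of the 38030 genes with a UMI in DMSO cultures, and promoters from RefSeq. Some items of the lists are not reported here.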

Additional observations from a re-analysis of the deposited data

Results flagged for a closer look

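The 32 groups of 4 cultures examined were log2 ratios of named genes in DMSO cultures and the shares with DMSO and with troglitazone. In these groups, 3 log2 ratios of high-score to other cells had a culture apart from the others, where chance gives about 1 in 20. ENSG00000285155 was 1.00 in replicate 4, MMADHC-DT was 1.29 in replicate 5, and COL3A1 was −6.78 in replicate 5, where its high-score cells had no UMI of it.

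Changes with etoposide differed between high-score and other cells by the interaction test for 7 genes. The difference of log2 changes was 2.73 for ANLN at 2.5 µM. At 25 µM it was 1.76 for COL8A1, 5.21 for ENSG00000225096, 2.12 for ENSG00000280241, −2.51 for ENSG00000240241, −1.45 for LINC02197 and −1.54 for LMCD1. In high-score cells, ENSG00000225096 had 3.38 and 36.4 CPM with 25 µM etoposide, against 0.82, 1.79, 1.57 and 0 CPM with DMSO. ENSG00000240241 had 11.3 and 8.55 CPM with etoposide, against 95.6, 62.5, 29.0 and 17.1 CPM with DMSO. The part of the small number of cells, 10 in each culture with 25 µM etoposide, was not tested.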

How the results depend on the processing

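Differences in share kept their sign in 156 alternatives and turned in 7. With 2 cultures of a treatment the exact test cannot reach 0.05, so its p says nothing about stability there. The difference for 0.2 µM cycloheximide became 0.232 points with thinned scores and 0.739 without BTNL8 in the score, and that for troglitazone 1.32 without BTNL8 and 0.0975 without LINC02268. Taking the top 7% within each culture fixes the share and gave no comparison. With 1 culture left out, differences ran from −7.09 to 3.83 (turned without cycloheximide replicate 1) and −5.56 to −3.41 points for 0.2 and 2 µM cycloheximide, from −4.02 to −1.87, −4.27 to −0.716 and −7.46 to −5.31 for 0.25, 2.5 and 25 µM etoposide, from −4.68 to 0.521 for medium (turned without medium replicate 2), from −3.42 to 1.04 for troglitazone (turned without troglitazone replicate 2), and from −5.85 to −1.92, −5.18 to −3.02 and −8.20 to −4.75 for 0.001, 0.01 and 0.1 µM tunicamycin.

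Counts of genes called in high-score cells were, without the filter on low counts, 41, 65 and 59 genes for 0.25, 2.5 and 25 µM etoposide, 15 for medium, 40 for troglitazone and 38 for tunicamycin. DESeq2 gave 4, 1 and 4 for etoposide, 2 for troglitazone and 2 for tunicamycin. The top 5% gave 0 for 0.25 µM and 0 for 25 µM etoposide and 1 for tunicamycin, and the top 10% gave 0, 0 and, for troglitazone, 1. With 1 culture left out the counts ran from 0 to 15, 0 to 18 and 0 to 3 for etoposide, 0 to 3 for troglitazone, 0 to 3 for tunicamycin and stayed at 0 for medium. Differences between classes without the filter called 42, 65 and 176 genes for etoposide, 23 for medium, 62 for troglitazone and 28 for tunicamycin, and with 1 culture left out 0 to 9, 0 to 16 and 0 to 37 for etoposide, 0 to 1 for medium, 0 to 2 for troglitazone and 0 to 29 for tunicamycin. Genes 2-fold apart in every DMSO culture numbered 11 to 16 higher and 62 to 102 lower with 1 culture left out, 3 higher and 21 lower with thinned scores, and 92 lower in thinned cells. Of 300 log2 ratios of named genes, 271 stayed within the spread of replicates, 28 moved further and 1 turned (TNIP3, −0.25 with thinned scores). The cause was not tested.

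Cultures of a treatment and DMSO share run numbers, but same-numbered cultures correlated between −0.110 and 0.235, which does not pair them. A replicate block by run gave 29, 79 and 0 genes for 0.25, 2.5 and 25 µM etoposide.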
